A study of Sus scrofa with 8 samples.

Results

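The HOX clusters of the pig were examined as stretches of accessible chromatin in muscle satellite cells, the stem cells that lie along muscle fibres and supply new myoblasts. Members were the protein-coding genes of the RefSeq table for Sscrofa11.1 whose symbol is HOXA, HOXB, HOXC or HOXD followed by a number only, which gave 36 genes. Peaks of 8 ATAC-seq libraries were merged into regions wherever they overlapped by 1 bp, and a region was assigned to a HOX gene when an end of that gene was the nearest end of any protein-coding gene and lay within 50 kb. This rule kept 118 regions of the 114950 linked to any protein-coding gene, and of 178498 regions in all. The nearest region to a HOX gene outside the limit lay 93549 bp from HOXC13, and the farthest inside lay 44830 bp from HOXB1.

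HOX genes encode homeodomain transcription factors that give each level of the body axis and each segment of the limb its identity. Within a cluster the genes are numbered by paralog, and in vertebrate embryos genes of low number are used early and towards the head, genes of high number late and towards the tail and the limb tip. In mice, muscle stem cells of adult animals keep HOX expression that reflects where their muscle formed, and Hoxa10 is used in limb satellite cells.

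The libraries form 4 groups of 2. They are labelled CBP at 60 h, WT at 60 h, CBP at 0 h and WT at 0 h, where 60 h is labelled as differentiation and 0 h as proliferation. The series title places the work in the study of CBP, a histone acetyltransferase, in the differentiation of these cells. All samples carry the same treatment text, which names SGC-CBP30, a ligand of the CBP and EP300 bromodomains, at a dose written as 5 uM/ml, with exposures of 48 h (proliferating cells) and 60 h (differentiating cells), so the labels do not say which groups received it. The labels also name a cell line C3H for all samples, give the organism as pig, and do not say whether replicates came from separate animals or cultures. The spread between replicates may therefore be technical.

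The deposited lists held 82696 to 88871 peaks on chromosomes 1 to 18 and X in the 60 h libraries, against 121757 to 135528 in the 0 h libraries. Relative depth, taken from the most frequent local background value of each list, was 1.10 ± 0.0853 at 60 h and 1.80 ± 0.296 at 0 h (SD, n = 4 each), in units of the shallowest library. Time and depth therefore move together in this series. HOX counts per library, per cluster and between groups were also made with the 82696 peaks of highest −log10 q in every library. So were the share of HOX regions called in every library and the bases under peaks. Counts by distance, by position, by gene and for lists of other genes rest on the peaks as deposited alone. Each of the 7 genes listed as markers of satellite cells and myoblasts (among them PAX7, MYF5, MYOD1 and MYOG) had a region called in all 8 libraries, and so did each of the 5 fibroblast, 4 endothelial, 3 immune and 2 adipocyte genes. Of the 3 neural and Schwann genes none had one. A region of this kind is held by 85.7% of all protein-coding genes with a linked region, so its presence does not check the labelled cell type. By region, 20.5% of those at the satellite cell and myoblast genes were called in every library, 27.5% at the fibroblast, 24.5% at the endothelial, 16.7% at the immune and 43.8% at the adipocyte genes. Of the 10 regions at the neural and Schwann genes none was. The share of all linked regions was 31.8%, so the adipocyte genes alone lay above it.

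Accessible sites ran through all 4 clusters, at genes of low and of high number alike. The HOXA cluster spans 107 kb of chromosome 18 and held 25 linked regions, 12 of which were called in every library. The HOXB cluster spans 165.7 kb (chr12:24784953-24950661) with 37 regions, 16 called in every library, and lies in the opposite direction on its chromosome. The HOXC cluster spans 117.2 kb (chr5:19151096-19268267) with 35 regions, 12 called in every library. The HOXD cluster spans 96 kb (chr15:81893997-81990026) with 21 regions, 11 called in every library.

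**Figure D1:**
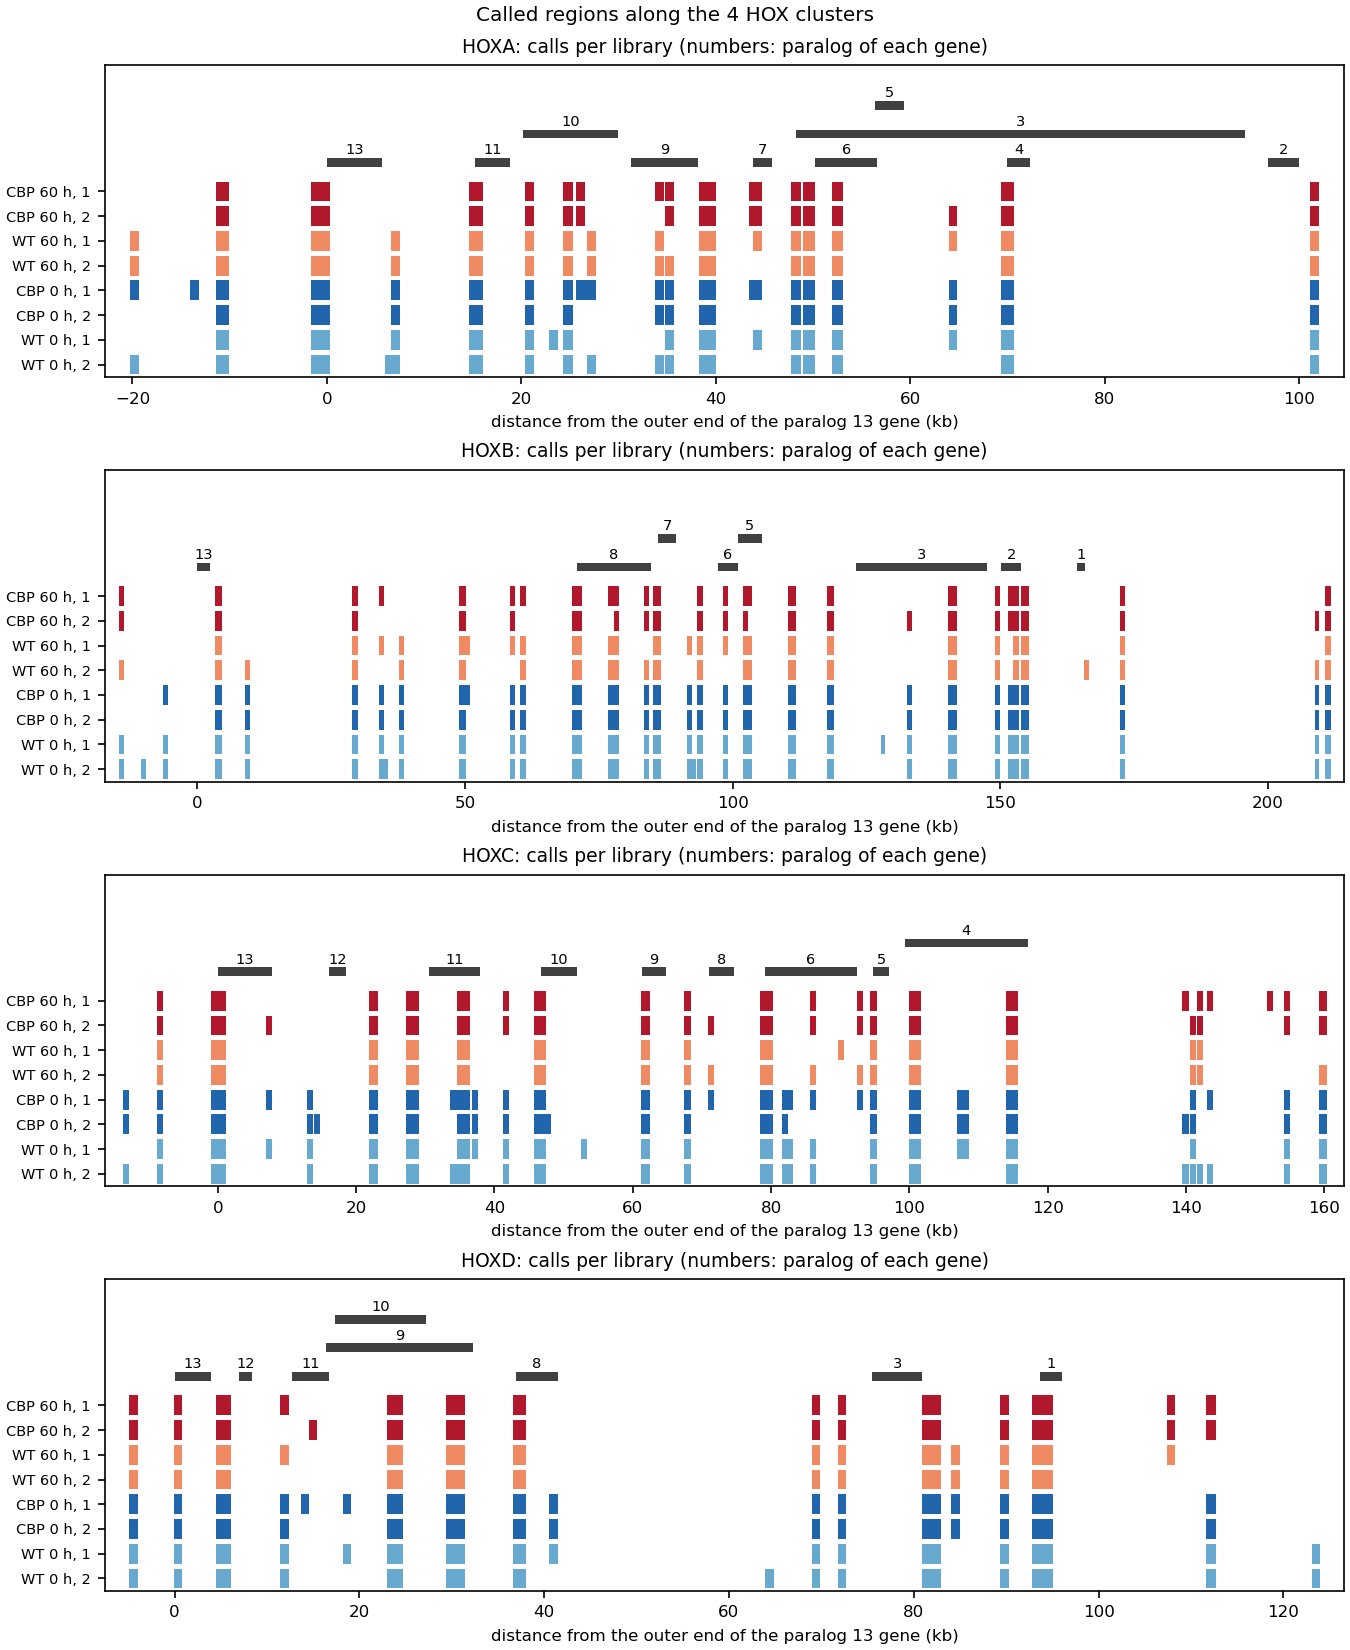
Calls along the HOXA, HOXB, HOXC and HOXD clusters, 1 row per library and 1 coloured mark per called region, against distance in kb from the outer end of the paralog 13 gene; dark bars are the HOX genes with their paralog numbers, and marks are drawn at least 0.9 kb wide. Columns filled from top to bottom are regions called in all 8 libraries, 1 gene and its region are not drawn, and the blue rows (0 h) hold more marks than the red ones (60 h).

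In all, 51 of 118 HOX regions (43.2%, 95% Wilson interval 34.6 to 52.2) were called in all 8 libraries, beside 31.8% of all linked regions. Regions of 1 cluster are neighbours and not independent, and this interval covers counting error alone. At the other end, 17 HOX regions (14.4%) were called in a single library, beside 21.4% of all linked regions. With equal peak numbers, 42 of the 93 HOX regions still called were called in all 8 libraries, beside 39.5% of linked regions.

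These shares differed with the distance from a gene end. Of 17 HOX regions that hold a gene end, 16 were called in every library (94.1%, interval 73.0 to 99.0), beside 86.4% of such regions genome-wide. From 1 to 1000 bp away it was 9 of 21 (42.9%, interval 24.5 to 63.5), beside 31.9%. From 1001 to 10000 bp it was 22 of 55 (40.0%, interval 28.1 to 53.2), beside 25.4%, the one class whose interval lay above the genome-wide share. From 10001 to 50000 bp it was 4 of 25 (16%, interval 6.40 to 34.7), beside 24.9%. Taking the 2 nearest classes together, the HOX share and the genome-wide share were both 65.8%, although the HOX share was higher in each class. The mix of the 2 classes differed. A gene end was held by 17 HOX regions and 21 lay 1 to 1000 bp away, against 11861 and 7207 genome-wide. HOX regions called in every library were of ordinary width, with a median of 1264 bp beside 1280 bp for all linked regions of that kind.

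**Figure D2:**
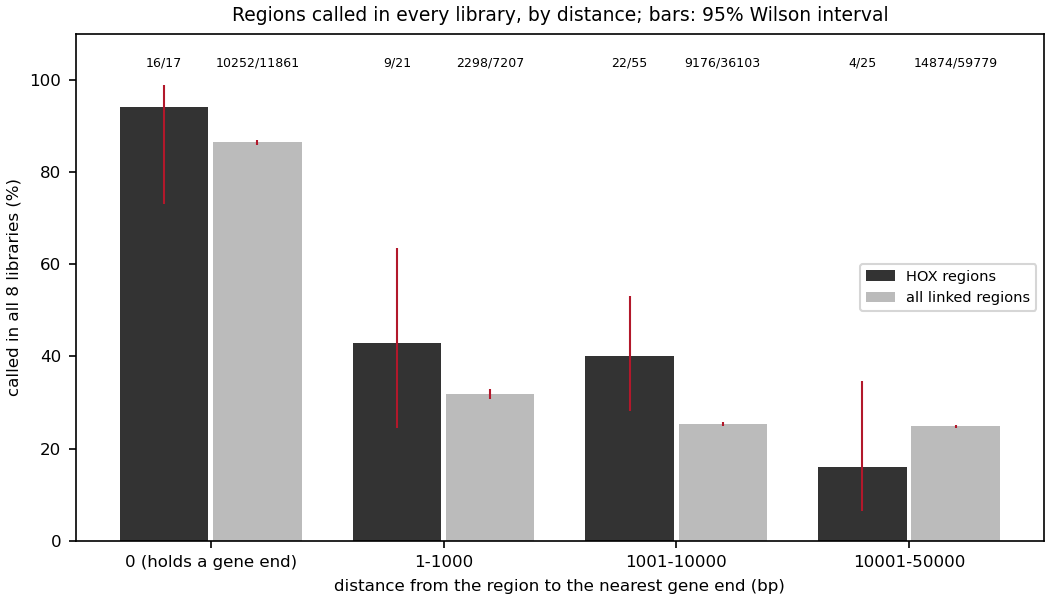
Share of regions called in all 8 libraries (%), for HOX regions (dark bars) and all linked regions (grey bars), by distance in bp to the nearest gene end, with 95% Wilson intervals as thin lines and counts above. HOX regions run from 94.1% at gene ends to 16% beyond 10000 bp, beside 86.4% and 24.9% of all linked regions.

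By position in the cluster, genes numbered 9 to 13 held 21 regions called in every library of 50, genes 5 to 8 held 12 of 32, and genes 1 to 4 held 18 of 36. Of 36 genes, 31 had at least 1 linked region called in every library, or 88.6% of the 35 with any linked region, beside 85.7% of all 17525 protein-coding genes with one. The 5 without one were HOXA5, HOXA7, HOXC8, HOXD11 and HOXD12. HOXC8, which patterns the thorax and the motor neurons of the forelimb in mice, had a single region (chr5:19222255-19222624), called in CBP 60 h replicate 2, WT 60 h replicate 2 and CBP 0 h replicate 1. HOXD11, needed with HOXA11 for the forearm in mice, had a region called in 6 libraries and another in 1. HOXD12 had no linked region, although a region of HOXD13 called in every library lay 871 bp from one of its ends. HOXA7 had regions called in 3 and 5 libraries, and HOXA5 one called in 5.

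Gene by gene, HOXA13 had 2 constant regions (called in all 8 libraries) of 6, HOXA11 had 1 of 1, HOXA10 had 2 of 6 and HOXA9 had 1 of 3. HOXA6 had 2 of 2, and HOXA4, HOXA3 and HOXA2 each had 1 of 1. A constant region held an end of HOXA13, HOXA11, HOXA4 and HOXA3, and constant regions lay 30 bp from an end of HOXA6 and 67 bp from an end of HOXA9.

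In HOXB, each of the 8 genes had a constant region. HOXB13, a gene of the tail end and the prostate, had 2 of 8, HOXB8 had 3 of 9, HOXB7 had 1 of 3 and HOXB6 had 1 of 2. HOXB5 had 2 of 3, HOXB3 had 2 of 4, HOXB2 had 3 of 4 and HOXB1 had 2 of 4. An end of HOXB7 and of HOXB8 lay in a constant region, and HOXB2 had constant regions 50 and 231 bp from its ends. HOXB1, which marks a single hindbrain segment in mouse embryos, had its nearest constant region 6561 bp away. The region closest to it lay 306 bp from an end and was called in 1 library, WT 60 h replicate 2, with a fold of 4.34.

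In HOXC, the genes numbered 9 to 13 each had a constant region. HOXC13 had 2 of 4, HOXC12 had 1 of 3, HOXC11 had 2 of 5, HOXC10 had 1 of 3 and HOXC9 had 2 of 2. HOXC6 had 1 of 6, HOXC5 had 1 of 1 and HOXC4 had 2 of 10, where 7 of the 10 lay beyond the cluster on the HOXC4 side. Ends of HOXC13, HOXC10, HOXC9, HOXC6 and HOXC5 lay in constant regions. At HOXC13 (chr5:19150123-19152225) the fold was 7.84 and 6.88 in CBP 60 h, 8.004 and 6.74 in WT 60 h, 5.87 and 7.77 in CBP 0 h, and 6.22 and 6.01 in WT 0 h libraries. The 60 h and 0 h values overlapped there.

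In HOXD, HOXD13, a digit gene in mice and people, had 3 constant regions of 3. HOXD10, HOXD9 and HOXD8 had 1 of 2 each, HOXD3, which patterns neck vertebrae in mice, had 3 of 5, and HOXD1 had 2 of 5. Ends of HOXD13, HOXD8, HOXD3 and HOXD1 lay in constant regions. All 3 regions beyond HOXD1, outside the span, were called in part of the libraries, with 3, 6 and 2 calls. The middle one (chr15:82005672-82006688) had a fold of 2.87 and 3.87 in CBP 60 h, 7.89 and 7.84 in CBP 0 h, and 6.08 and 6.47 in WT 0 h libraries, and no WT 60 h library called it. Its 2 values at 60 h lay below all 4 at 0 h, and it was the single HOX region called at 0 h alone in WT cells in lists of equal length.

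Gaps between neighbouring constant regions were measured inside each cluster span. The longest in each cluster was 30420 bp in HOXA, between the regions of HOXA4 and HOXA2, 24272 bp in HOXB, next to HOXB13, 20758 bp in HOXC, across HOXC13 and HOXC12, and 20307 bp in HOXD, between HOXD8 and HOXD3. Protein-coding genes without a symbol take 10 further regions inside the spans, 1 in HOXA, 5 in HOXC and 4 in HOXD, which the rule leaves out. In the RefSeq table the HOXA3 entry reaches across HOXA4, HOXA5 and HOXA6, so its 1 region lies between HOXA7 and HOXA6, and the HOXD9 entry reaches across HOXD10. HOXB4, HOXB9 and HOXD4 have no entry under those symbols with coordinates and were not analysed here.

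The clusters also differed from other regions in the signal around their peaks. The peak caller compares each peak with a local background, an estimate of the signal in a window around it that cannot go below a library-wide value. Local background and peak height were recovered from the authors' fold and p-value, and the background was divided by the library's floor, its most frequent background value. At HOX regions called in every library the median was 3.89 times the floor, against 2.61 times at all linked regions called in every library. In HOXA it was 7.46, in HOXD 4.21, in HOXC 3.81 and in HOXB 3.13. A background of at least 3 times the floor was found at 37 of these 51 regions (72.5%), beside 41.9% of all linked regions called in every library, and at 68 of all 118 HOX regions (57.6%), beside 22.7% of all linked regions. This level was chosen after the values were seen. The 51 regions also had more bases under merged regions in the surrounding 10 kb. The median was 2057, beside 1739 at all linked regions called in every library. The part of this peak density in their background was not tested.

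**Figure D3:**
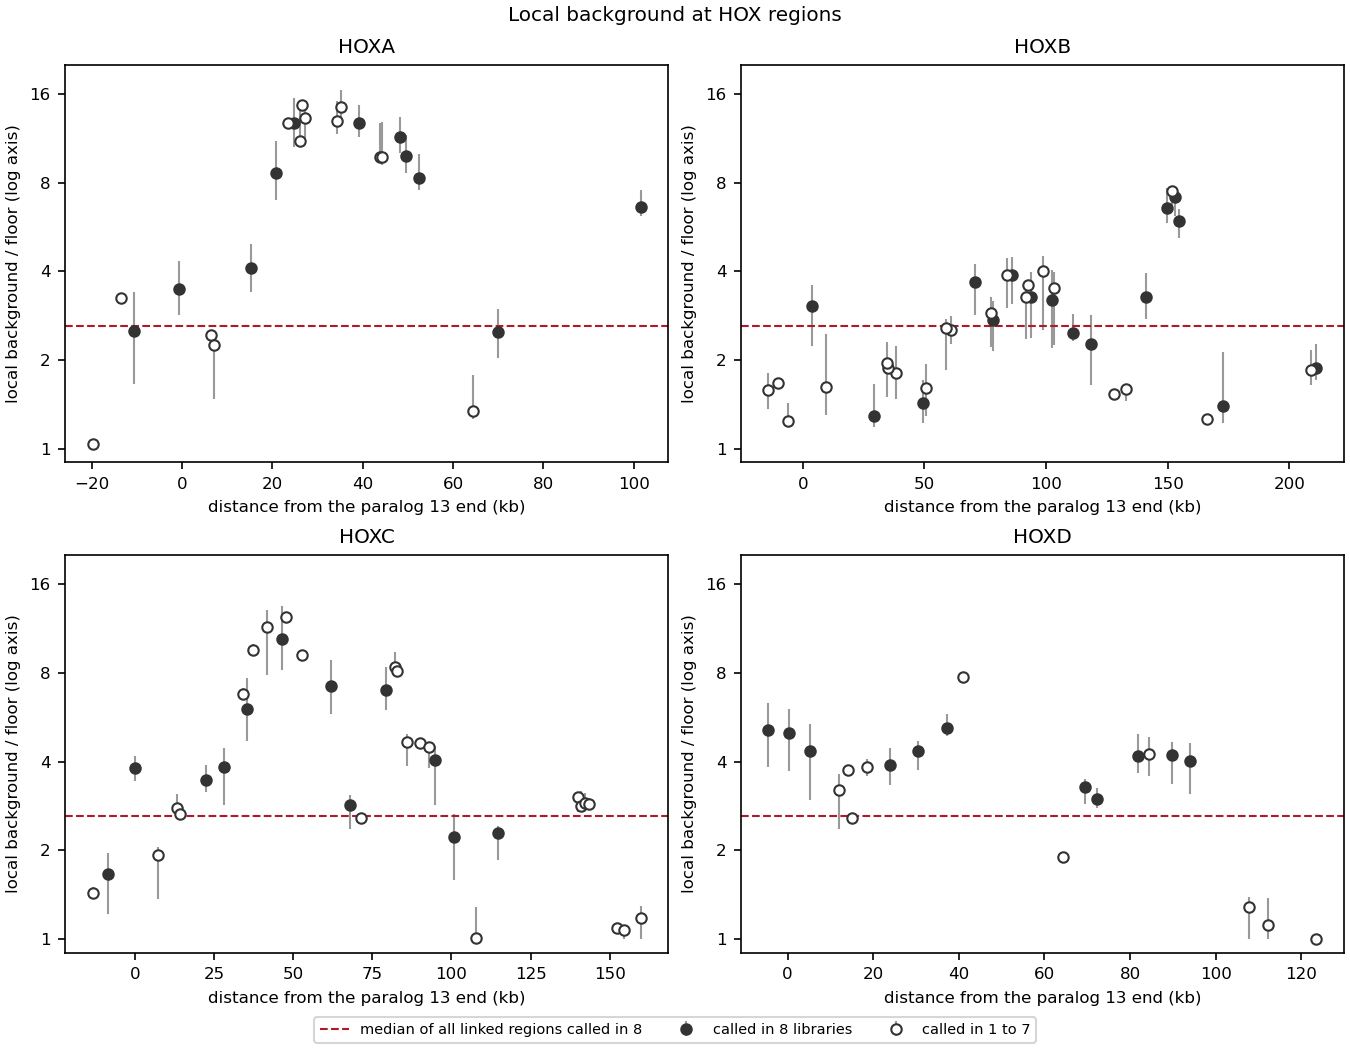
Local background divided by the library's floor (log axis) at each HOX region against distance in kb from the paralog 13 end, by cluster; points are medians over the libraries that called the region, filled where all 8 did, thin lines run from the lowest to the highest library, and the dashed line marks 2.61, the median of all linked regions called in 8; 1 region is not drawn. The highest values, 14.7 in HOXA and 12.3 in HOXC, come from 1 library at 0 h each; among regions called in all 8 the highest are 12.7 and 10.4. The lowest values are 1.04 in HOXA, 1.24 in HOXB, 1.01 in HOXC and 1.00 in HOXD, while the HOXD region beyond HOXD13 is at 5.13.

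The middle of HOXA stood highest. All 14 consecutive regions from HOXA10 to HOXA6, over 32.8 kb (chr18:45393660-45426411), had a background of 8.31 to 14.7 times the floor; 6 of them were called in every library, with 8.31 to 12.7. The stretch is the run of regions at 8 times the floor or more, a level chosen after the values were seen, so its lower neighbours follow from its definition. Genome-wide, 1.84% of linked regions reached 8 times the floor. HOXA9 and HOXA10 lie at its centre. Among 15021 genes with a region called in every library, and over such regions alone, HOXA9 (12.7 times the floor) ranked 33, HOXA3 (11.4) ranked 65, HOXA10 (median 10.7) ranked 93 and HOXA6 (median 9.10) ranked 212. Over all linked regions HOXA10 had a median of 12.7, but 2 of its 6 regions were called in a single 0 h library each, and background is higher at 0 h. HOXA9 is best known from blood stem cells, and in mice it is induced in satellite cells of old animals.

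Values on both sides of the border were as follows. At HOXA11 (chr18:45387998-45389363) the background was 3.40 and 4.03 times the floor in CBP 60 h, 3.94 and 3.75 in WT 60 h, 4.79 and 4.80 in CBP 0 h, and 4.95 and 4.16 in WT 0 h libraries. At the next region, by the near end of HOXA10 (chr18:45393660-45394601), it was 7.29 and 7.86 in CBP 60 h, 7.67 and 6.98 in WT 60 h, 10.7 and 11.06 in CBP 0 h, and 10.1 and 9.44 in WT 0 h libraries. The values of these neighbouring sites did not overlap in any library. The border between them was itself drawn from these values, so this is no separate check of it. On the other side, the HOXA5 region (chr18:45437382-45438077) was at a median of 1.35 and the HOXA4 region at 2.48. HOXA2, which patterns the hindbrain and pharyngeal arches, stood at 6.61.

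HOXC held a comparable stretch. Its 5 consecutive regions from HOXC11 to HOXC10, over 16 kb (chr5:19188141-19204152), lay at 9.20 to 12.3 times the floor. Of the 5, 1 was called in every library, 1 in 6 libraries, 1 in 3 libraries, all at 0 h, and 2 in a single 0 h library each. By regions called in every library, HOXC10 (10.4) ranked 104 among the 15021 genes and HOXC11 (median 4.92) ranked 2169. Both genes act in the lumbar region and hindlimb of mice. Another 2 regions above 8 times the floor lay in HOXC6, but both were called in 0 h libraries alone. The HOXC6 region called in every library was at 6.99. HOXB and HOXD had no region at 8 times the floor. Their highest genes by such regions were HOXB2 (median 6.57, rank 802), a hindbrain gene in mice, and HOXD8 (5.20, rank 1811). HOXB1 (median 1.64, rank 12579) and HOXD3 (median 3.28, rank 5505) were the lowest ranked genes of these clusters.

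Peaks that lie close together raise each other's local background, and the middle of HOXA is rich in them. The 6 constant regions of the HOXA10 to HOXA6 stretch had a median of 3340 bases under merged regions in the surrounding 10 kb, a value at percentile 97.8 of all linked regions called in every library. The 6 HOXA regions had a median background of 10.7 times the floor. The 6459 linked regions called in every library within the same range of covered bases had a median of 5.27 times the floor, but fewer covered bases (median 2732), so the part of peak density was not tested. HOXC10 had 2269 covered bases, at percentile 77.9, and a background of 10.4. Copy number and read mapping in these stretches were not tested.

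The 6 HOXA regions belong to a run picked by its medians over these same 8 libraries. High values in single libraries thus follow in part from that choice and are no separate check of the pattern. Over the 6 HOXA regions the median background was 9.82 and 10.5 times the floor in CBP 60 h libraries, 9.81 and 9.35 in WT 60 h, 12.4 and 12.5 in CBP 0 h, and 10.8 and 10.8 in WT 0 h. The 60 h values thus lay below all 0 h values. Over all linked regions called in every library the medians likewise lay at 2.25 to 2.45 at 60 h, against 2.78 to 2.86 at 0 h, and depth differed in the same way, so the part of depth was not tested.

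Measured as fold over this local background, HOX peaks ranked low. The authors' fold was ranked within each library's own list, and the median HOX rank lay at percentile 21.9 to 34.7 over the libraries. The median rank of the 51 constant HOX regions was percentile 47.0, beside 70.6 for all linked regions called in every library. For the 67 HOX regions called in 1 to 7 libraries it was percentile 7.35, without a matching value for other regions. None of the 51 had a median rank at percentile 90 or above, as 16.5% of all linked regions of that kind did. A high local background lowers the fold by its construction, and the lowest rank of the 51 lay inside the HOXA10 to HOXA6 stretch. It was the HOXA10 region at chr18:45397653-45398652, with a fold of 2.22 and 2.1 in CBP 60 h, 2.37 and 2.47 in WT 60 h, 1.89 and 2.01 in CBP 0 h, and 2.05 and 2.33 in WT 0 h libraries. Its median rank was percentile 0.416.

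The highest ranked region of each cluster lay outside those stretches. The HOXD10 region at chr15:81917022-81918672 lies inside the gene, which directs lumbar motor neurons in mice. Its fold was 7.57 and 9.25 in CBP 60 h, 8.41 and 8.98 in WT 60 h, 7.26 and 7.41 in CBP 0 h, and 8.02 and 7.26 in WT 0 h libraries, a median percentile of 88.8. In HOXB it was a region 4955 bp from HOXB5 (chr12:24838752-24840269, percentile 88.4), with a fold of 6.56 to 8.66 over the libraries. In HOXA it was the region at an end of HOXA4 (chr18:45442636-45444026, percentile 85.2), with 6.11 to 8.87. In HOXC it was the region 1405 bp from an end of HOXC4 (chr5:19265014-19266862, percentile 80.1), with 5.77 to 7.79.

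The widest regions lay mostly at the outer genes. They were 2194 bp at HOXD1 (chr15:81986829-81989022), 2103 bp at HOXC13 (chr5:19150123-19152225), a hair and nail gene in mice and people, 1914 bp at HOXA13 (chr18:45371697-45373610), a gene of the digits and urogenital tract, and 1902 bp at HOXB8 (chr12:24878754-24880655). All 4 hold a gene end and were called in every library.

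Over time, fewer HOX regions were called at 60 h than at 0 h. Of the 118, the CBP 60 h libraries called 77 and 75, the WT 60 h libraries 72 and 72, the CBP 0 h libraries 99 and 84, and the WT 0 h libraries 89 and 92. The mean was 74 ± 2.45 at 60 h and 91 ± 6.27 at 0 h (SD, n = 4 each), and every 60 h library was below every 0 h library. The ratio was 0.813, beside 0.672 for all linked regions, of which 47.7% were called at 60 h and 71.0% at 0 h. With equal peak numbers the order turned: 70.5 ± 1.29 HOX regions at 60 h and 60.8 ± 2.87 at 0 h, a ratio of 1.16, while all linked regions were at 45.9% at 60 h and 47.7% at 0 h. The lower count at 60 h is thus not kept when lists of the same length are compared.

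**Figure D4:**
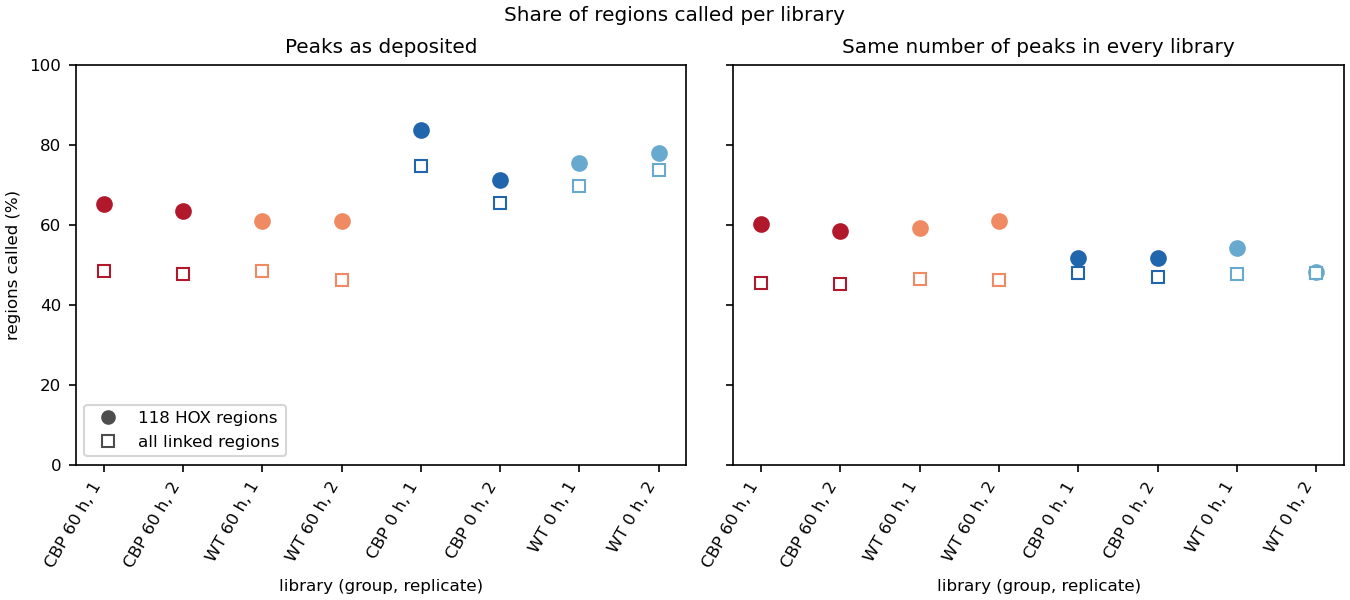
Share of the 118 HOX regions (filled circles) and of all linked regions (open squares) called in each library (%), with the peaks as deposited (left) and with the 82696 peaks of highest −log10 q in every library (right). HOX shares are lower at 60 h on the left (61.0% to 65.3%, against 71.2% to 83.9% at 0 h) and higher at 60 h on the right (58.5% to 61.0%, against 48.3% to 54.2%).

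By cluster, HOXA had 17.3 ± 0.500 called regions at 60 h and 18.5 ± 3.11 at 0 h. HOXB had 24.5 ± 1.00 at 60 h and 31.5 ± 2.08 at 0 h. HOXC had 18.8 ± 2.87 at 60 h and 25.3 ± 1.89 at 0 h, and HOXD had 13.5 ± 1.00 at 60 h and 15.8 ± 0.957 at 0 h (SD, n = 4 each). The 60 h and 0 h libraries overlapped in HOXA and did not overlap in the other clusters. In lists of equal length the order of the means turned in HOXA (17 at 60 h and 12.8 at 0 h), HOXB (23.3 at 60 h and 21.3 at 0 h) and HOXC (17.8 at 60 h and 14.3 at 0 h), and HOXD had 12.5 at both times. By position, with the peaks as deposited, the ratio of 60 h to 0 h was 0.748 at genes 9 to 13, 0.835 at genes 5 to 8 and 0.877 at genes 1 to 4. All linked regions had 0.672. This order came from pooling the clusters, and HOXB alone had it. In HOXA and HOXC the ratio was highest at genes 5 to 8 (1.07 and 0.85), and in HOXD it was lowest there (0.571). Ratios by position were not made in lists of equal length, so the part of depth in them was not tested.

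Bases under peaks showed how densely the clusters were covered. In HOXD they made up 13.1 ± 0.274% of the span at 60 h and 16.3 ± 1.52% at 0 h. In HOXC they made up 10.9 ± 0.827% at 60 h and 15.2 ± 1.39% at 0 h, and in HOXA 10.1 ± 0.799% at 60 h and 13.7 ± 1.49% at 0 h. In HOXB they made up 8.21 ± 0.752% at 60 h and 12.5 ± 1.09% at 0 h (SD, n = 4 each). All protein-coding gene bodies together were at 2.76% at 60 h and 4.63% at 0 h, without the intergenic sequence that the cluster spans include. The clusters were not compared with other stretches of like gene density, so the part of gene density was not tested. The ratios of 60 h to 0 h were 0.802, 0.715, 0.738 and 0.656 for HOXD, HOXC, HOXA and HOXB, beside 0.597 for gene bodies. In lists of equal length they were 0.885, 0.932, 0.964 and 0.794, beside 0.720.

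**Figure D5:**
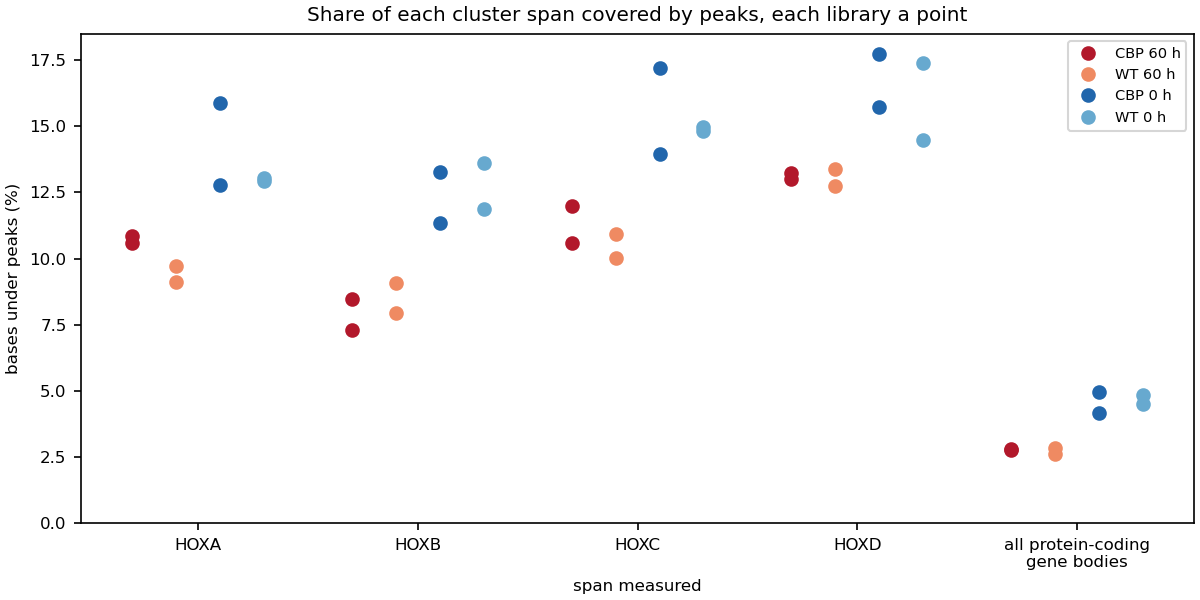
Bases under peaks as a share of each cluster span and of all protein-coding gene bodies (%), 1 point per library, groups from left to right CBP 60 h, WT 60 h, CBP 0 h and WT 0 h. In every cluster the 60 h points (7.32% to 13.4%) lie below the 0 h points of the same cluster, and all cluster values lie above those of gene bodies.

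Groups of 2 libraries allow calls to be counted but not tested, since 2 against 2 cannot go below an exact permutation p of 0.333. In WT cells, 1 of 118 HOX regions was called in both 60 h libraries and in neither 0 h library, beside 0.575% of all linked regions. The reverse held for 10, beside 14.3%. In CBP cells, 3 HOX regions were called at 60 h alone in this sense, beside 1.36%, and 11 at 0 h alone, beside 14.5%. The HOX counts at 0 h alone, 8.47% of the 118 in WT and 9.32% in CBP cells, were thus below the background shares. In lists of equal length, WT cells had 9 HOX regions called at 60 h alone (7.63%, beside 2.62% of linked regions) and 1 at 0 h alone (0.847%, beside 3.89%). CBP cells had 7 at 60 h alone (5.93%, beside 3.64%) and 3 at 0 h alone (2.54%, beside 5.57%). Of those at 60 h alone, 1 of the 9 and 2 of the 7 had this pattern in the deposited lists too. The others were also called in at least 1 deposited 0 h list of the same label, from peaks left out of the shorter lists. Those at 0 h alone all kept their pattern in the deposited lists.

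The regions called at 0 h alone in WT cells lay mostly in HOXC and HOXB. In HOXC they were 1 region of HOXC12, 1 of HOXC11, 2 of HOXC6 and 1 of HOXC4, in HOXB 1 each of HOXB2, HOXB3 and HOXB13, and in HOXD 2 of HOXD1. None lay in HOXA. In CBP cells they were 1 region each of HOXC13, HOXC12, HOXC11, HOXC6, HOXC4, HOXB7, HOXB8, HOXB13, HOXD8, HOXD3 and HOXA13. The regions called at 60 h alone were 1 of HOXD3 in WT cells, and 1 each of HOXC4, HOXB13 and HOXD1 in CBP cells.

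Over both labels, no HOX region was called in all 4 libraries at 60 h and in none at 0 h, beside 0.109% of all linked regions. The reverse pattern was found for 2, beside 5.47%. The HOXC12 region (chr5:19164120-19164856) had a fold of 3.14 and 2.99 in CBP 0 h and 3.43 and 2.88 in WT 0 h libraries. The HOXC6 region (chr5:19232866-19233431) had a fold of 2.14 and 1.95 in CBP 0 h and 2.60 and 2.21 in WT 0 h libraries. Both were weak peaks, and neither was in the list of such regions with equal peak numbers. Then none had that pattern, beside 1.27% of linked regions, and 2 others were called in all 60 h libraries and in no 0 h library, beside 0.689%: 1 of HOXC4 (chr5:19292780-19293462) and 1 of HOXB2 (chr12:24800730-24801529). The HOXB2 region was called in all 8 deposited lists, and the HOXC4 region in 5, among them WT 0 h replicate 2. Fisher's exact test on the calls of each region, adjusted over all 178498 regions by Benjamini-Hochberg, passed no region in either contrast at 0.05, HOX or other. The smallest p this test can give with 4 against 4 libraries is 0.0286, and its smallest adjusted p between times was 0.491. That floor left the adjusted test little room to pass any region, so no conclusion is drawn from it. Unadjusted, 10378 regions had an exact p under 0.05 between times, 2 of them HOX, and 760 between labels, none of them HOX.

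Between labels at 60 h, HOX regions differed in both directions, in shares close to those of all linked regions. The CBP 60 h libraries both called 6 regions that neither WT 60 h library called, 5.08% of HOX regions beside 3.14% of all linked regions. The WT 60 h libraries both called 5 that neither CBP 60 h library called, 4.24% beside 3.17%. Relative depth was 1.21 and 1.08 in the CBP 60 h libraries and 1.11 and 1 in the WT 60 h libraries. With equal peak numbers the counts were 4 (3.39%) on the CBP side and 7 (5.93%) on the WT side, beside 2.77% and 3.45%, and with links to the nearest gene of any type they were 3 and 3. Of the regions on the CBP side 4 were found by both ways of counting, and of those on the WT side 5.

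Regions on the CBP side were 1 each of HOXC11, HOXC4, HOXB2, HOXD1, HOXA10 and HOXA7. The HOXA7 region (chr18:45417046-45417290) had a fold of 2.76 and 3.02 in the CBP 60 h libraries and 2.22 in CBP 0 h replicate 1, and no call elsewhere. The HOXA10 region (chr18:45399249-45399519) had 2.20 and 2.03 in the CBP 60 h libraries and 1.53 in CBP 0 h replicate 1. The HOXC11 region (chr5:19192369-19193134) had 2.20 and 2.52 in the CBP 60 h libraries, 1.96 and 2.40 in CBP 0 h and 2.28 and 2.02 in WT 0 h. It was thus missing from the WT 60 h lists alone. All 3 lie within the stretches of high local background, where a call needs a higher peak, and so does the HOXA10 region on the WT side.

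Regions on the WT side were 2 of HOXA13 and 1 each of HOXA10, HOXB8 and HOXD3. The HOXA10 region (chr18:45400303-45400806), at a median background of 13.2 times the floor, had a fold of 2.24 and 2.30 in WT 60 h libraries, 1.60 in CBP 0 h replicate 1 and 1.69 in WT 0 h replicate 2. The HOXB8 region (chr12:24912079-24912876), between HOXB13 and HOXB8, had the highest fold of the 5. Its fold was 5.71 and 5.99 in WT 60 h, 5.41 and 5.17 in CBP 0 h, and 6.12 and 6.11 in WT 0 h libraries, and neither CBP 60 h library called it. The HOXA13 region at chr18:45380123-45380647 had the same pattern, with a fold of 3.25 and 4.15 in WT 60 h, 3.50 and 4.40 in CBP 0 h, and 3.0 and 3.22 in WT 0 h. The other HOXA13 region, at chr18:45353213-45353879, had 4.66 and 3.06 in WT 60 h, 3.6 in CBP 0 h replicate 1 and 3.27 in WT 0 h replicate 2.

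At 0 h the labels differed less. A single HOX region was called in both CBP 0 h libraries and neither WT 0 h library, beside 2.23% of all linked regions, and it was the HOXD3 region. The reverse held for 2, in HOXB13 and HOXD1, beside 3.35%. In lists of equal length it was 1 region on each side, in HOXA13 and HOXB1, beside 1.85% and 2.35%. Over both times, no HOX region was called in all 4 CBP libraries and in none of the WT libraries or the reverse, beside 0.142% and 0.231%, nor with equal peak numbers, beside 0.198% and 0.373%. Over both times the CBP libraries called 83.8 ± 10.9 HOX regions and the WT libraries 81.3 ± 10.8 (SD, n = 4 each).

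MicroRNA genes and EVX genes of the clusters could be placed beside these regions. A HOXB region called in all 8 libraries lay 619 bp from MIR10A, and the HOXC5 region, called in 8, lay 342 bp from MIR615. MIR10B, MIR196A-1 and MIR196A-2 had their nearest regions at 479, 2949 and 290 bp, called in 1, 7 and 1 libraries. EVX1 and EVX2, homeobox genes that flank HOXA and HOXD beyond paralog 13, hold regions called in 7 and 8 libraries.

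Genes that work with or on HOX genes were counted in the same way, but with the peaks as deposited alone, where depth differs between times. HOX cofactors of the PBX, MEIS and PKNOX families had 26 of 86 regions called in every library (30.2%, beside 31.8% of all linked regions). In CBP cells 1 of the 86 was called at 60 h alone and 22 at 0 h alone (25.6%, beside 14.5% of all linked regions). In WT cells none was called at 60 h alone and 7 at 0 h alone (8.14%, beside 14.3%), so the share lay above the background in CBP and below it in WT cells; the difference was not tested. Polycomb and trithorax genes, which hold HOX genes silent or active, had 67 of 180 regions called in every library (37.2%), with 20 of 22 genes holding one. Of their regions none was called at 60 h alone. At 0 h alone it was 26 in CBP cells (14.4%, beside 14.5%) and 22 in WT cells (12.2%, beside 14.3%), near the background. Genes of retinoic acid signalling, an inducer of anterior HOX genes in embryos, were matched for 7 of 9 entries and had 44 of 97 regions called in every library (45.4%). Of the 97, 1 in CBP cells (1.03%, beside 1.36%) and 4 in WT cells (4.12%, beside 0.575%) were called at 60 h alone. At 0 h alone it was 6 in CBP cells (6.19%, beside 14.5%) and 9 in WT cells (9.28%, beside 14.3%).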

How the data were processed

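Chromatin accessibility was measured by ATAC-seq in 8 libraries, 4 groups of 2. Per the submitters' processing notes, Trimmomatic and MACS2 2.1.0 were used with the Sscrofa11.1 build. The aligner, any control library, the handling of duplicate and mitochondrial reads, the shift of reads and the peak threshold were not stated in the sources used here. The authors deposited a narrowPeak list per library, with replicates not pooled: each peak has a deposited score, a fold ratio over local background, a −log10 p-value, a −log10 q-value and a summit offset.

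From these lists, chromosomes 1 to 18 and X were kept, overlapping peaks (1 bp) were merged, and a region was called in a library when any peak of it overlapped. Regions were linked to the nearest end of a protein-coding gene within 50 kb, with the RefSeq table of Sscrofa11.1, which gives no strand. The lists hold no read totals. Pileup and local background were solved from the deposited fold, (pileup + 1)/(background + 1), and the Poisson upper-tail p-value, which gave pileups that were whole numbers, to within 0.01 of the deposited −log10 p, for 100% of peaks. Fold and background of a region are those of its peak of highest fold in that library. Depth limits which weak peaks are called, and intervals cover counting error only.

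Groups came from the sample labels. Counts of regions called in all libraries of one group and none of the other were read against all linked regions, with no test over the members. Fisher's exact test per region was two-sided, adjusted by Benjamini-Hochberg, and checked on simulated data. Genes were named, except 1 whose result is not reported here, and regions were named when they differed fully between groups, or were the highest ranked or widest of a cluster. Other regions given with values, such as those of HOXC8, HOXA11, HOXA5 and HOXB1, the first HOXA10 region and the middle HOXD1 region, were chosen after their values were seen. Alternatives were equal peak numbers, −log10 q of at least 5, at least 50% of the region covered, links within 10 or 1 kb or to genes of any type, a replicate block and leaving out each library. Ranks of genes by local background over regions called in all 8 libraries were added after the data were seen. Members and lists were chosen with earlier results of these data known. Promoter sequences and motifs were not analysed here. Python 3.11.15, numpy 2.4.6, pandas 2.3.3, scipy 1.17.1 and matplotlib 3.10.9 were used.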

Additional observations from a re-analysis of the deposited data

Results flagged for a closer look

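A gap test for a single sample far from the rest of its group (Dixon's test, which flags about 5% of groups by chance) marked 4 sets of values. At 60 h, the HOXA regions called were 17 and 17 in CBP and 18 and 17 in WT libraries, where the gap took up the whole range (ratio 1). The same ratio of 1 came from the HOXB regions called at 60 h, with 25 and 23 in CBP and 25 and 25 in WT libraries, and from the HOXD regions called at 60 h, with 14 and 14 in CBP and 14 and 12 in WT libraries. These gaps are of 1 or 2 regions. A ratio of 1 arises whenever all counts but 1 are tied, so the rate of 5% does not hold for these sets. At 0 h, the share of the HOXA span under peaks was 15.9% in CBP replicate 1 and 12.8%, 12.9% and 13.03% in the other libraries (ratio 0.920). That library also called the most HOX regions, 99.

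The HOXD3 region at chr15:81978202-81978813 differed in opposite directions between groups and was called in 4 libraries. Its fold was 2.66 and 2.64 in WT 60 h and 2.58 and 2.36 in CBP 0 h libraries, and the CBP 60 h and WT 0 h libraries did not call it. It was thus called at 60 h alone in WT and at 0 h alone in CBP cells, and on the WT side at 60 h and the CBP side at 0 h. The difference between the contrasts was not tested. Its lowest −log10 q was 3.14 at 60 h.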

How the results depend on the processing

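Counts rest on lists of unequal depth, 2 libraries a group and calls without read totals, so weak peaks that pass in a deep library and miss in a shallow one count as differences. A region without a call is not shown to be closed. Of 155 values recomputed under settings other than leaving out a library, 67 kept their direction and stayed near the main value and 88 moved. The cause was not tested where a value moved, other than by the construction of the setting.

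With equal peak numbers, the HOX regions called at 60 h alone and at 0 h alone became 9 and 1 in WT and 7 and 3 in CBP cells, those on the WT side at 0 h became 1, and those over both labels became 2 and 0. The means at 0 h became 12.8, 21.3, 14.3 and 12.5 for HOXA, HOXB, HOXC and HOXD (HOXB at 60 h 23.3), and the spans covered at 0 h became 10.3%, 9.99%, 11.6% and 14.6%. All linked regions called in 8 became 39.5%. At a −log10 q of at least 5, CBP cells had 1 region at 60 h alone, the labels at 0 h differed at 0 and 0 regions, the CBP side at 60 h held 3, and 1 region was called in all 0 h and no 60 h libraries. Means became 13.5, 19.5, 13.8 and 11 at 60 h, and 26.3, 19.8 and 14.8 at 0 h for HOXB, HOXC and HOXD. Spans became 8.65%, 6.85%, 9.88% and 12.1% at 60 h, and 11.3% and 13.3% at 0 h for HOXB and HOXC, and all linked regions called in 8 became 32.7%. Where peaks had to cover 50% of a region, WT and CBP cells had 2 and 5 regions at 60 h alone and the WT side at 60 h held 8. Means became 13.3, 18, 14.5 and 11.5 at 60 h, and 27.5 and 21.5 at 0 h for HOXB and HOXC, and the shares called in 8 became 27.1% for HOX and 17.8% for all linked regions.

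With links within 10 kb, CBP cells had 0 regions at 60 h alone, the WT side held 0 at 0 h and 3 at 60 h, means became 15.8, 18.3, 15 and 12.3 at 60 h and 23.5, 20.3 and 14 at 0 h for HOXB, HOXC and HOXD, and all linked regions called in 8 became 39.4%. Within 1 kb, WT cells had 0 and 0 regions at 60 h and 0 h alone, CBP cells 0 and 2, the labels 0 and 0 at 0 h and 1 and 0 at 60 h, and 0 over both labels. Means became 9.25, 6, 7.5 and 6.5 at 60 h and 9, 6, 8.25 and 7.75 at 0 h, shares called in 8 became 65.8% for HOX and 65.8% for all linked regions, and the local background median became 4.99 times the floor. With the nearest gene of any type, the labels at 60 h differed at 3 and 3 regions, means became 11.5, 14.3 and 11.3 at 60 h and 12.5, 17.8 and 17.3 at 0 h for HOXA, HOXB and HOXC, and all linked regions called in 8 became 30.7%.

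Leaving out each library in turn, WT cells had 1 to 5 regions at 60 h alone and 15 to 19 at 0 h alone, and CBP cells 3 to 8 and 13 to 21. Regions on the CBP side numbered 9 to 12 at 60 h and 3 to 9 at 0 h, and those on the WT side 6 to 9 at 60 h and 2 to 8 at 0 h. Over both labels it was 0 to 1 and 2 to 5, and over both times 0 to 2 and 0 to 0. Such counts can only grow, since fewer libraries must match. Means ranged over 17 to 17.3, 24.3 to 25, 18 to 20 and 13.3 to 14 at 60 h and 17 to 19.3, 30.7 to 32.3, 24.3 to 25.7 and 15.3 to 16 at 0 h for HOXA to HOXD. Spans ranged over 9.81% to 10.4%, 7.92% to 8.51%, 10.5% to 11.2% and 13.004% to 13.2% at 60 h and 12.9% to 13.9%, 12.2% to 12.9%, 14.6% to 15.7% and 15.9% to 17.0% at 0 h. Shares called in all remaining libraries ranged over 44.0% to 46.2% for HOX and 33.0% to 34.1% for all linked regions, and the local background over 3.83 to 3.96 times the floor.

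With replicate numbers as a block, the 36 arrangements of labels give a smallest p of 0.0556, so 0 HOX regions had an exact p under 0.05 between times and 0 between labels. The numbers did not pair the libraries: same-numbered libraries of different groups had correlations of −0.0127 to 0.00449 over 6 pairs in their deviations from group means. The local background was added after the data were seen.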
